A study of Homo sapiens with 3 samples.

Results

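Metallothioneins and zinc transporters were described in 3 RNA-seq libraries of MTAC-P cells as 10 named genes, 5 metallothioneins (MT1E, MT1F, MT1G, MT1X and MT2A), 3 zinc importers (SLC39A4, SLC39A7 and SLC39A1) and 2 zinc exporters (SLC30A1 and SLC30A5), out of 26221 genes with a usable value. MTAC-P is a human lung cancer line that was derived from PC9 and withstands EGFR tyrosine kinase inhibitors. The control library (1 sample, titled shLuciferace) and the shBCAT1 libraries (2 samples, titled shBCAT1 1 and shBCAT1 2) came from this 1 line, grown in DMEM with 10% serum with no other agent named. Neither the hairpin sequences nor the number of cultures behind the shBCAT1 libraries are given, and the labels do not say whether both carry the same hairpin. Any spread between them may be technical or may come from different cultures or hairpins, which cannot be told apart. The series' design speaks of triplicate libraries, while 1 control and 2 shBCAT1 libraries were analysed here, so what the 2 stand for as replicates is not settled. The genes are those of a list of names picked with earlier values of these libraries in view, so their levels and differences are given as a description, without a test.

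Metallothioneins are small proteins rich in cysteine that bind zinc, copper and cadmium and act as a buffer for zinc in the cytosol. Zinc importers of the SLC39 family (also called ZIP) bring zinc into the cytosol from outside the cell or from organelles, and exporters of the SLC30 family (ZnT) move it out of the cytosol. Zinc in excess activates the transcription factor MTF1, which binds metal response elements in the promoters of metallothionein genes and of SLC30A1. Glucocorticoids and oxidants also raise metallothionein transcription in many cell types.

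The sequences upstream of metallothionein genes are shown because they carry the metal response elements by which these genes are known. The 250 bases before the annotated start are printed 5′ to 3′ on the sense strand, from RefSeq on GRCh38.p14. Capitals mark each match to TGCACNC or TGCGCNC on either strand. MT2A (chr16:56608334-56608583) and MT1X (chr16:56682220-56682469) are the members with the highest metallothionein levels, and MT1H (chr16:56669564-56669813) and MT1B (chr16:56651636-56651885), family genes listed at 0 in all 3 libraries, are set beside them. All 4 lie on the plus strand.
MT2A: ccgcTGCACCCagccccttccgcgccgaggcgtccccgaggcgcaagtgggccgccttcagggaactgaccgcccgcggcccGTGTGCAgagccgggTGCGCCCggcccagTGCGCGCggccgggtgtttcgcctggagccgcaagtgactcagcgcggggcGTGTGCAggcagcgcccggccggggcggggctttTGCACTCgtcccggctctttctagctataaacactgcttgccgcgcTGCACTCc
MT1X: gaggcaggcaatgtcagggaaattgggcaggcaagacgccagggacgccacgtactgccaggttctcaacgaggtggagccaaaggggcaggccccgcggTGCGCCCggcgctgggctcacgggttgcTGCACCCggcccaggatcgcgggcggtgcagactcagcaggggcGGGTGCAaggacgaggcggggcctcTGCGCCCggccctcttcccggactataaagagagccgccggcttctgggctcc
MT1H: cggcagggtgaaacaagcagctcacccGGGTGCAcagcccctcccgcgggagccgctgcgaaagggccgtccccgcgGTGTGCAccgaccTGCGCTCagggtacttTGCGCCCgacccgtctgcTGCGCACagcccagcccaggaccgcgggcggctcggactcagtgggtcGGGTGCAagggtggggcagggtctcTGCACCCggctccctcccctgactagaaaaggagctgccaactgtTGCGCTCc
MT1B: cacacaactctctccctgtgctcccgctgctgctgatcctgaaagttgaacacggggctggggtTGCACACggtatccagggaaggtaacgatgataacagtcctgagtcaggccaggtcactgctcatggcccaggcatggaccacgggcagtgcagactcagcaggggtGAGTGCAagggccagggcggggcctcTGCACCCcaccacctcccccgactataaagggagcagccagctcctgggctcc

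The window of MT2A held 7 matches, that of MT1X 4, that of MT1H 8 and that of MT1B 3. At least 1 match was found in 24.8% of all 35116 promoter windows of this length, at least 4 in 0.370% and at least 7 in 0.0313%. A TATAAA stood 29 bases before the start of MT2A and 30 bases before those of MT1X and MT1B, and in 6.80% of all windows on the sense strand. None of these matches overlapped one another. MT1H, with the most matches of the 4, was listed at 0 FPKM, a level that is uncertain because these genes are close copies. Among the other members found in the promoter table (6 of 10 in all), SLC30A1 had 1 match, SLC39A1 had 1 in 1 of its 2 windows, and SLC39A7 and SLC30A5 had 0. MT1E, MT1F, MT1G and SLC39A4 had no entry there. A match is a run of letters and not a shown binding site. The deposited MT2A transcript begins upstream of the RefSeq start, so the last match in its window lies inside that transcript.

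**Figure D1:**
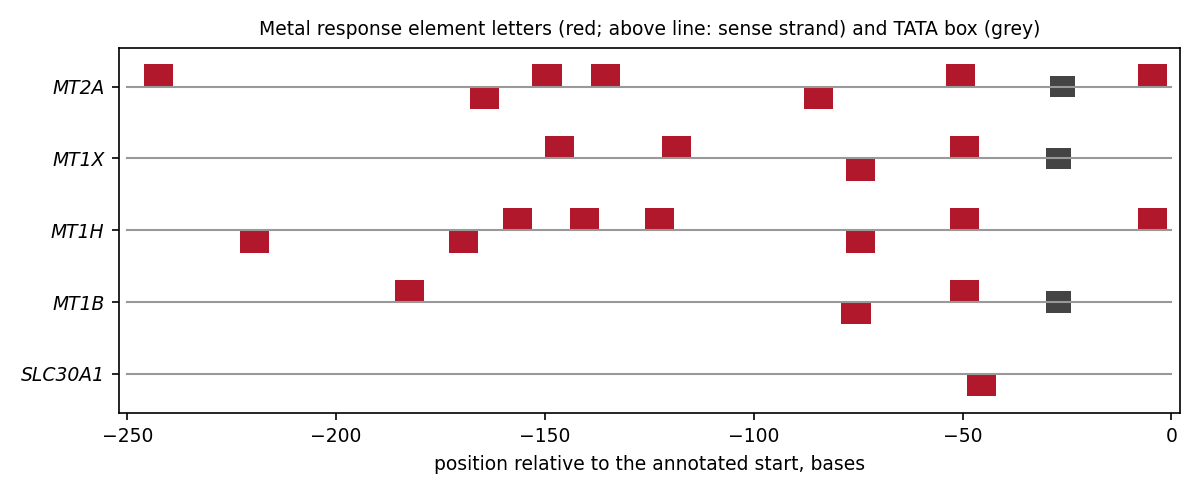
Metal response element letters (red) and TATAAA (grey) in the 250 bases before the annotated start of 5 genes, with the position in bases on the horizontal axis; boxes above a line are matches on the sense strand, boxes below it on the other strand. MT2A shows 7 red boxes, MT1X 4, MT1H 8, MT1B 3 and SLC30A1 1.

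Levels are FPKM, fragments per kilobase of transcript scaled to the mapped fragments of the library, as deposited, with the lower and upper bounds of Cufflinks in brackets. The bounds cover counting and the assignment of reads to transcripts, and cover no spread between libraries. Genes at 1 FPKM or more numbered 3679 to 4026 per library, and the bounds put the depth of shBCAT1 1 at 1.03 and of shBCAT1 2 at 1.09 times that of the control. BCAT1, the targeted gene, was at 0.213 FPKM (0.129 to 0.297) in the control, 1.05 (0.835 to 1.27) in shBCAT1 1 and 0.241 (0.158 to 0.325) in shBCAT1 2. It was thus not lower in either library labelled shBCAT1, and higher with bounds apart in shBCAT1 1, so "shBCAT1 1" and "shBCAT1 2" stand for the libraries labelled so and every direction is between labels. Epithelial keratins were high in every library and made up nearly all of the summed level of 6 epithelial markers, from 786 to 1092 FPKM. EPCAM was lower, at 3.86, 3.28 and 3.91 FPKM in the control, shBCAT1 1 and shBCAT1 2, and CDH1 at 0.923, 0.951 and 1.24. Alveolar markers were near 0, with SFTPC, the defining surfactant gene, at 0 in all 3. Fibroblast and endothelial markers summed to at most 0.259 FPKM, and leukocyte markers to 3.47, 3.66 and 3.64 in the control, shBCAT1 1 and shBCAT1 2, nearly all of it CD68, with PTPRC at 0. The RNA is from whole cultures, so fewer cells that express a gene and less of its RNA per cell cannot be told apart.

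MT2A, the main metallothionein of most human tissues, was by far the most abundant member. It stood at 57.1 FPKM (48.7 to 65.4) in the control, 42.6 (35.5 to 49.7) in shBCAT1 1 and 87.9 (77.9 to 97.8) in shBCAT1 2. The control lay between the shBCAT1 libraries, its bounds overlapped those of shBCAT1 1 at their edge, and shBCAT1 2 stood apart from both. The widths of the bounds correspond to 186, 143 and 312 fragments. As a ratio to the control this was 0.746 in shBCAT1 1 and 1.54 in shBCAT1 2. The 95% exact intervals, for counting error only, were 0.596 to 0.933 and 1.28 to 1.86. They take the FPKM scale of each library as exact. The mean of the shBCAT1 libraries was 65.2 ± 32.0 FPKM (SD, n = 2). Between them the ratio was 2.06 (1.69 to 2.53), shBCAT1 2 being higher.

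MT1X, the second most abundant metallothionein here, showed the same order of libraries with a wider gap. It was at 5.93 FPKM (3.14 to 8.73) in the control, 1.92 (0.352 to 3.49) in shBCAT1 1 and 9.68 (6.26 to 13.1) in shBCAT1 2. These levels rest on 18, 6 and 32 fragments. The ratio to the control was 0.323 in shBCAT1 1 and 1.63 in shBCAT1 2. The 95% exact intervals, for counting error only, were 0.105 to 0.850 and 0.889 to 3.09. The bounds of both shBCAT1 libraries overlapped those of the control, and shBCAT1 2 was 5.05 times shBCAT1 1 (2.08 to 14.8) with bounds apart. MT2A was 9.62, 22.2 and 9.08 times as high as MT1X per length in the control, shBCAT1 1 and shBCAT1 2.

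The remaining metallothioneins were low or at 0. MT1F was at 1.11 FPKM in the control, 1.08 in shBCAT1 1 and 1.53 in shBCAT1 2, from 4, 4 and 6 fragments, and the libraries could not be told apart at this depth. MT1E (chromosome 16, 56625673 to 56627113) and MT1G (56666735 to 56668065) were listed at 0 in all 3 libraries. Of the 12 metallothionein genes of the family, MT1A was the only other one above 0, at 0.683 FPKM in the control and 0.627 in shBCAT1 2, each from 2 fragments, and at 0 in shBCAT1 1. The family summed to 64.8 FPKM in the control, 45.6 in shBCAT1 1 and 99.7 in shBCAT1 2, and MT2A held 88.1%, 93.4% and 88.1% of it. The 4 metallothionein pseudogenes found in the files were at 0.

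Metallothionein genes are close copies, so their separate levels are uncertain. The longest identical run between the GENCODE transcripts of MT1G and MT1X was 96 bases, between MT1G and MT2A 65, and between MT1X and MT2A 63. MT1E shared at most 52 bases with another of the 5 members, MT1G, and MT1F at most 62, also with MT1G. Read length is not given in the sources used here, so reads that match several copies may have been split between them.

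On the log2(FPKM + 1) scale, MT2A differed from the control by -0.41 in shBCAT1 1 and 0.61 in shBCAT1 2. MT1X differed by -1.25 and 0.62, and MT1F by -0.023 and 0.26. MT1F rests on 4 fragments in the control, 4 in shBCAT1 1 and 6 in shBCAT1 2, so its libraries could not be told apart. By sign alone, the 3 metallothioneins averaging 1 FPKM or more were negative in shBCAT1 1 and positive in shBCAT1 2. In shBCAT1 1 that sign did not hold under every setting: MT2A was at 0.035 after quantile normalization and 0.0023 with the trend on transcript length removed, and MT1F at 0.062 after median-of-ratios scaling, 0.027 and 0.38. After median-of-ratios scaling MT2A was at -0.26 in shBCAT1 1 and 0.60 in shBCAT1 2. MT1X kept its signs in both libraries under every setting tried. The mean difference over both shBCAT1 libraries of the 3 metallothionein members above 0 was -0.031, 0.50 without shBCAT1 1 and -0.56 without shBCAT1 2. With MT1E and MT1G counted at 0 it was -0.019, from -0.34 in shBCAT1 1 and 0.30 in shBCAT1 2. The sign of that mean is set by which library is used. The gap between shBCAT1 2 and shBCAT1 1 was 1.03 for MT2A and 1.87 for MT1X, and over the alternatives it ran from 0.86 to 1.13 and from 1.09 to 2.28.

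**Figure D2:**
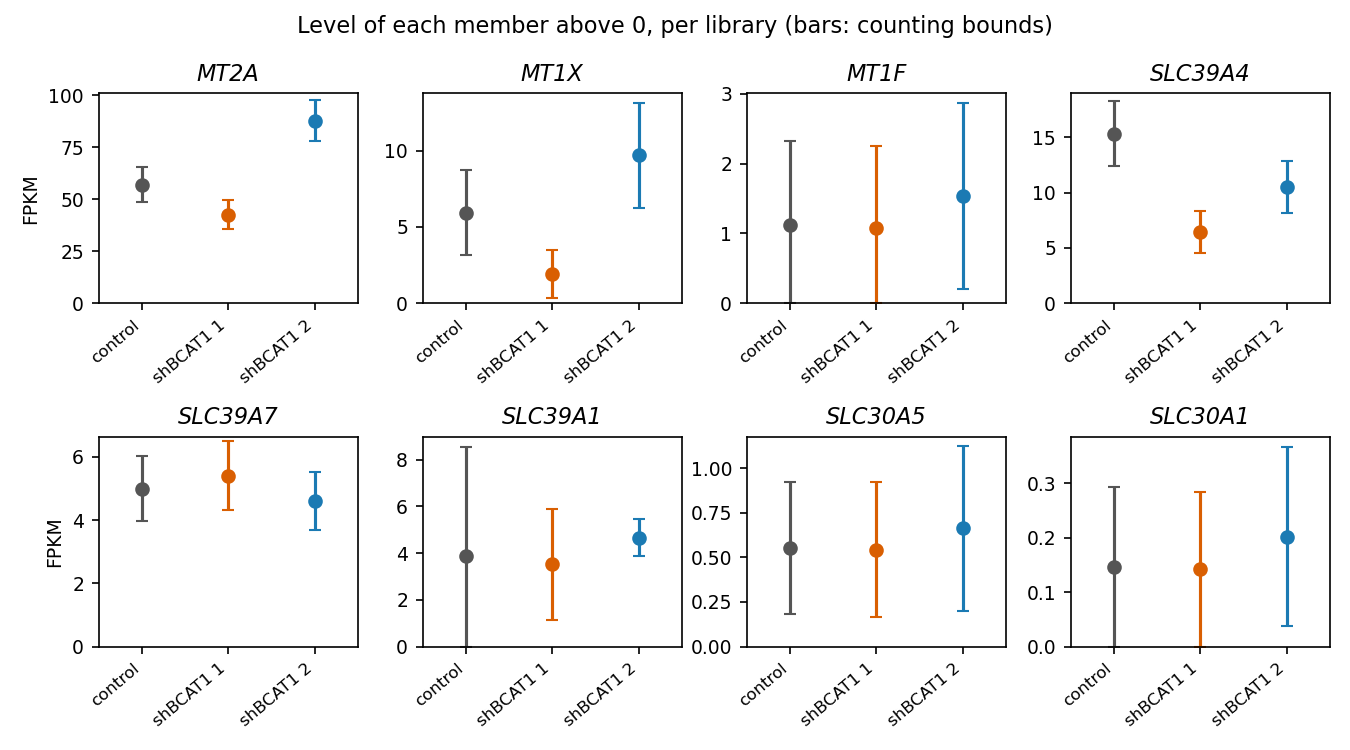
FPKM (vertical axes, each from 0) of the 8 members above 0 in the control, shBCAT1 1 and shBCAT1 2, with points for the deposited level summed over transcripts and bars for the bounds. MT2A and MT1X are lowest in shBCAT1 1 and highest in shBCAT1 2, SLC39A4 is highest in the control, and the bars of the other 5 members overlap in all 3 libraries.

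Differences of other genes give the scale for these values. Of the 3889 genes that averaged 1 FPKM or more, 7.61% were lower in shBCAT1 1 than in the control with bounds apart and 1.65% were higher, while 7.66% were lower and 7.35% were higher in shBCAT1 2. Among the 6 members at that level, SLC39A4 alone was lower in shBCAT1 1 and MT2A alone higher in shBCAT1 2, with 0 members apart in the other 2 directions. In both shBCAT1 libraries at once, 1.26% of genes were higher and 4.17% lower with bounds apart, and 0 members. Between the shBCAT1 libraries, 7.71% of genes were higher in shBCAT1 2 with bounds apart, MT2A and MT1X among them, and 1.83% were lower. By sign alone, 4 of the 6 members (MT2A, MT1X, MT1F and SLC39A1) were below the control in shBCAT1 1 and above it in shBCAT1 2, as were 974 of the 3889 genes (25.0%). SLC39A4 was below it in both, as were 43.7%, and SLC39A7 above and then below it, as were 5.35%, while 0 members and 25.6% of genes were above it in both. Nothing is read from these counts, since the members were picked from the same contrast.

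Among 999 genes that averaged 5 FPKM or more over a locus of 300 bases or more, shBCAT1 2 minus shBCAT1 1 ranked 2 for MT1X and 5 for MT2A from the most positive. By size regardless of sign the ranks were 7 and 11. The ranking was made after the values had been seen, and that of MT1X rests on 6 fragments in shBCAT1 1.

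**Figure D3:**
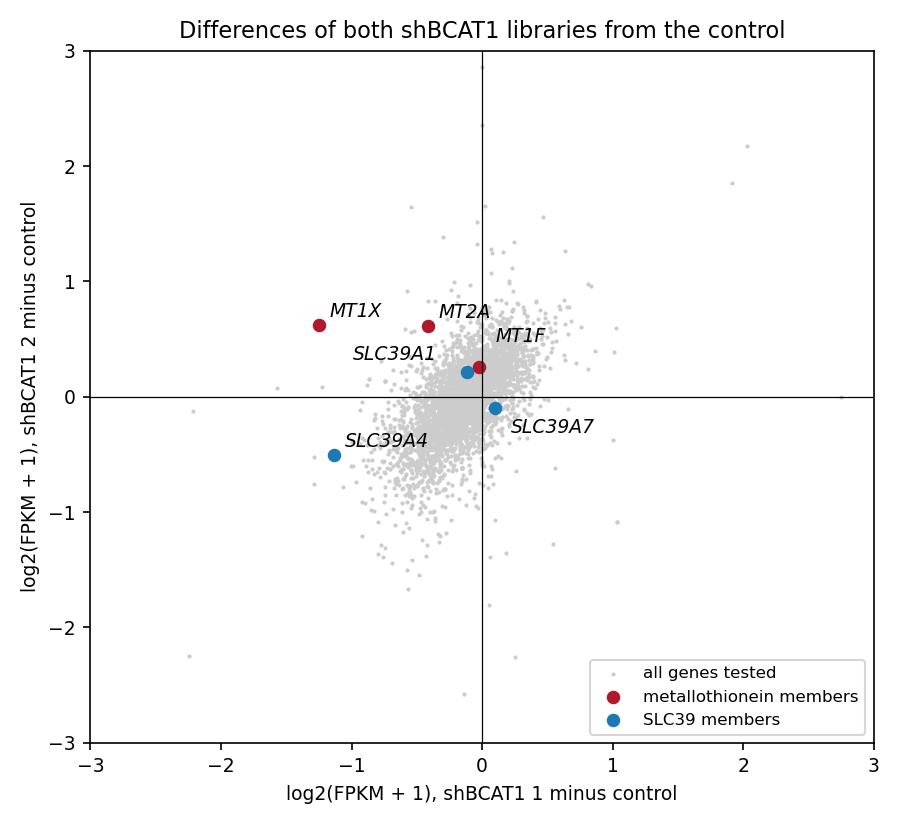
Difference from the control in log2(FPKM + 1) of shBCAT1 1 (horizontal axis) and shBCAT1 2 (vertical axis) for 3889 genes (grey; 34 lie beyond the axes) and the 6 members at 1 FPKM or more on average (red, metallothioneins; blue, SLC39 genes). MT1X at -1.25 and 0.62 and MT2A at -0.41 and 0.61 lie at the upper left edge of the cloud, and SLC39A4 at -1.13 and -0.50 at its left edge.

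The metallothionein transcripts were short, and genes with short transcripts tended to be below the control in both shBCAT1 libraries. Lengths were 419 bases for MT2A and 404 for MT1X. The 131 genes with transcripts of 300 to under 600 bases had a median difference of -0.45 in shBCAT1 1 and -0.55 in shBCAT1 2, beside -0.12 and 0.01 over all genes tested. In shBCAT1 1, MT2A at -0.41 lay near the median of its length class, with 57.3% of the class at or below it, and MT1X at -1.25 lay below the lower quartile of -0.57. In shBCAT1 2, 5.34% of the class were at or above MT2A at 0.61, with MT2A and MT1X themselves included. Both lay above the upper quartile of -0.26. With the length trend removed, MT2A was 0.0023 from the control in shBCAT1 1 and 1.13 in shBCAT1 2, and MT1X -0.82 and 1.15. The part of transcript length in these differences was not tested further.

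**Figure D4:**
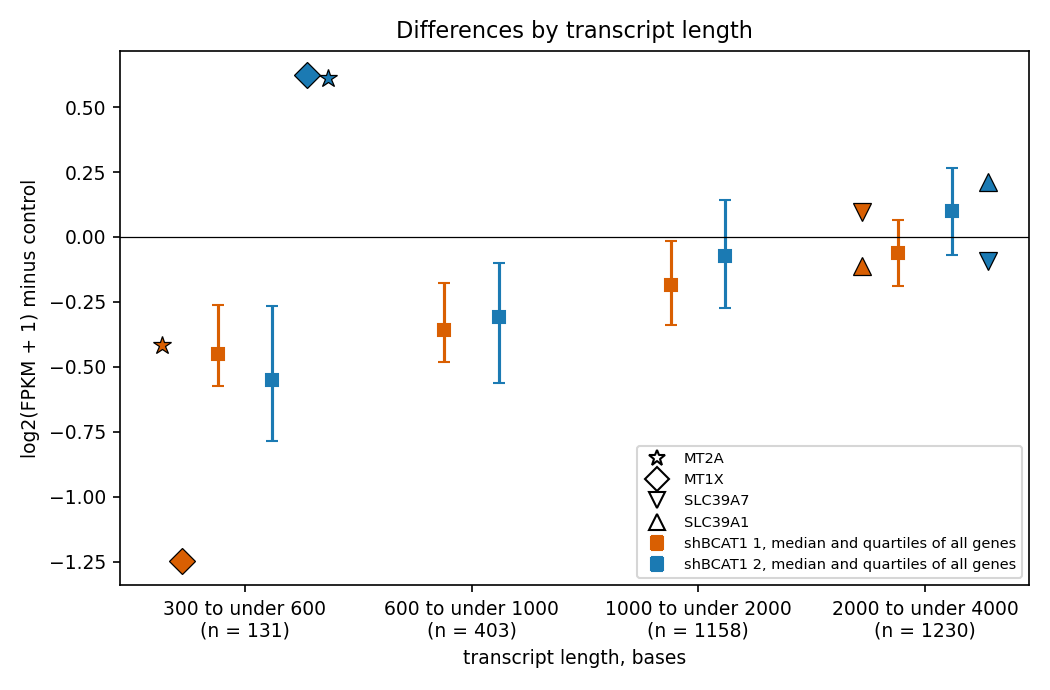
Difference from the control in log2(FPKM + 1) (vertical axis) by class of transcript length in bases (horizontal axis), as median and quartiles of all genes tested (squares and bars; orange, shBCAT1 1; blue, shBCAT1 2) with 4 members overlaid. MT2A and MT1X lie above the upper quartile of their class in shBCAT1 2, and in shBCAT1 1 MT2A lies near the class median and MT1X below the lower quartile.

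Among the importers, SLC39A4 (ZIP4), the transporter for uptake of dietary zinc whose loss causes acrodermatitis enteropathica, was the most abundant, and the control was the highest library. It was at 15.3 FPKM (12.4 to 18.3) in the control, 6.44 (4.56 to 8.33) in shBCAT1 1 and 10.5 (8.16 to 12.9) in shBCAT1 2. The bounds of shBCAT1 1 lay apart from those of the control, and those of shBCAT1 2 overlapped both other libraries. The mean of the shBCAT1 libraries was 8.47 ± 2.87 FPKM (SD, n = 2). The log2(FPKM + 1) differences from the control were -1.13 and -0.50, and over the alternatives they ran from -1.24 to -0.83 in shBCAT1 1 and from -0.54 to -0.31 in shBCAT1 2. SLC39A4 held 50.8% of the summed SLC39 level in the control, 31.9% in shBCAT1 1 and 40.9% in shBCAT1 2.

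Nearly all of the SLC39A4 level was placed on the short transcript NM_001280557, whose locus on chromosome 8 (144412414 to 144413591) spans 1178 bases at 1 end of the gene. That entry was at 15.0 FPKM in the control, 6.36 in shBCAT1 1 and 10.2 in shBCAT1 2, or 98.0%, 98.7% and 96.6% of the sum. The transcript NM_130849, which spans 4482 bases (144412414 to 144416895), was at 0.312, 0.0862 and 0.257 FPKM. FPKM on a short transcript is higher for the same number of fragments, so the summed level of SLC39A4 depends on this assignment. No length was matched to the short transcript, so SLC39A4 has no value with the length trend removed.

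SLC39A7 (ZIP7), which releases zinc from the endoplasmic reticulum and Golgi, had a summed level that was nearly the same in all libraries. It was at 4.99 FPKM (3.97 to 6.02) in the control, 5.4 (4.32 to 6.49) in shBCAT1 1 and 4.61 (3.69 to 5.53) in shBCAT1 2, with all bounds overlapping. Its transcripts at 1 locus (chromosome 6, 33200826 to 33204437) were assigned differently. NM_006979 was at 3.97 FPKM (3.24 to 4.71) in the control, 1.41 (0.900 to 1.91) in shBCAT1 1 and 2.80 (2.17 to 3.44) in shBCAT1 2, with shBCAT1 1 apart from both. NM_001288777 was at 1.02 FPKM (0.309 to 1.73), 2.68 (1.89 to 3.46) and 0.684 (0.256 to 1.11), again with shBCAT1 1 apart. NM_001077516 was near 0 in the control and at 1.32 and 1.13 FPKM in the shBCAT1 libraries. The share of SLC39A7 held by NM_006979 was 79.6%, 26.0% and 60.8%. Taking that transcript alone gives log2(FPKM + 1) differences of -1.05 and -0.39 where the gene sum gives 0.10 and -0.09.

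SLC39A1 (ZIP1), a broadly expressed importer of the plasma membrane, was at 3.89 FPKM (0.00 to 8.54) in the control, 3.52 (1.15 to 5.89) in shBCAT1 1 and 4.66 (3.89 to 5.44) in shBCAT1 2. The bounds of the control were the widest and took in both other libraries. NM_001271958 held 84.3% and 80.8% of the gene in the control and shBCAT1 1 and nearly all of it in shBCAT1 2. The log2(FPKM + 1) differences were -0.11 and 0.21. The former became 0.013 after scaling by median ratios and 0.040 after quantile normalization. The 3 SLC39 members together had a mean difference of -0.26, from -0.38 in shBCAT1 1 and -0.13 in shBCAT1 2, and SLC39A4 had the largest of the 3 differences in both libraries.

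Of the 14 SLC39 genes, 5 reached a mean of 1 FPKM, the 3 members with SLC39A3 and SLC39A11. SLC39A3 (ZIP3) was at 2.84 FPKM in the control, 1.89 in shBCAT1 1 and 2.25 in shBCAT1 2. SLC39A11 was at 1.17, 0.854 and 1.54 FPKM. Neither passed limma, with adjusted p of 0.804 for SLC39A3 and 0.999 for SLC39A11 over all 3889 genes, and their bounds overlapped in all 3 libraries. SLC39A13 (ZIP13) was just under the minimum, at 0.926, 1.07 and 0.987 FPKM, and SLC39A2 and SLC39A12 were at 0. The family summed to 30.2 FPKM in the control, 20.2 in shBCAT1 1 and 25.7 in shBCAT1 2.

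**Figure D5:**
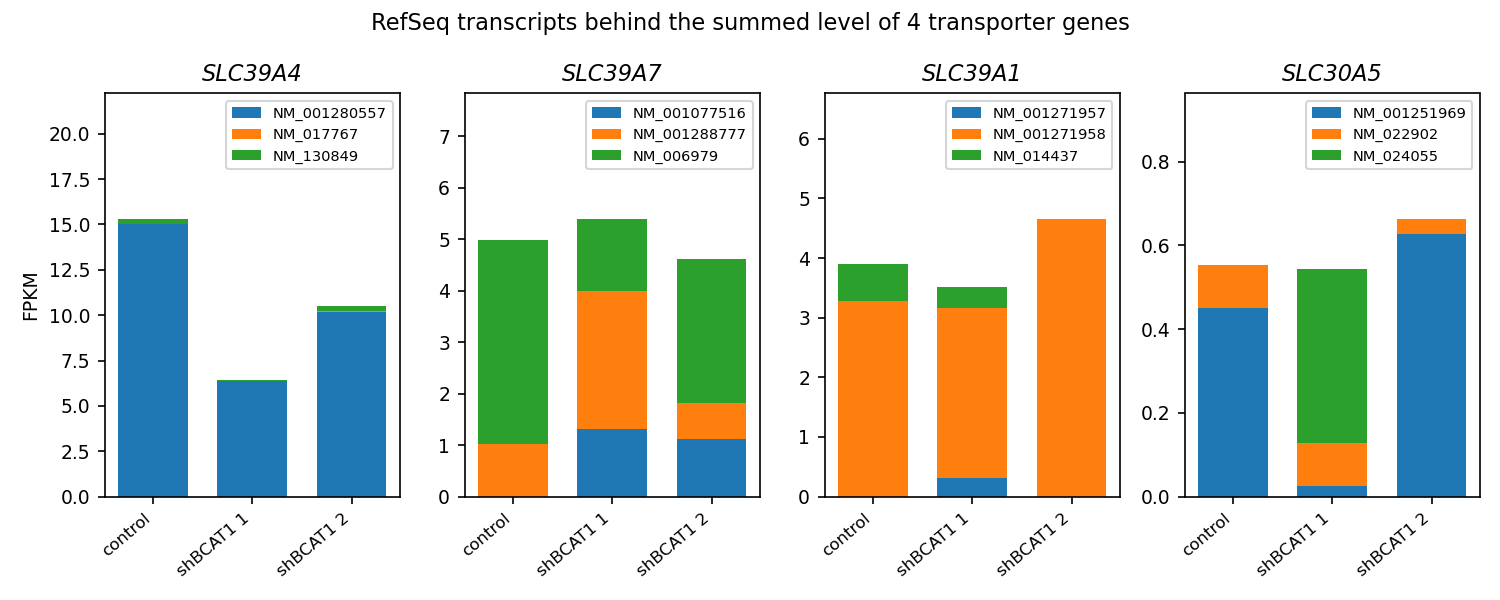
FPKM (vertical axes, from 0) of the RefSeq transcripts that make up the summed levels of SLC39A4, SLC39A7, SLC39A1 and SLC30A5 in the control, shBCAT1 1 and shBCAT1 2, with transcripts of at most 0.02 FPKM in every library left out. SLC39A4 rests on 1 short transcript in all 3 libraries, while in SLC39A7 NM_006979 goes from 79.6% of the gene in the control to 26.0% in shBCAT1 1 with little change in the height of the bar.

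The exporters were expressed at low levels, and neither member reached 1 FPKM. SLC30A5 (ZnT5), which loads zinc into the early secretory pathway together with SLC30A6, was at 0.554 FPKM (0.185 to 0.923) in the control, 0.544 (0.166 to 0.921) in shBCAT1 1 and 0.664 (0.202 to 1.13) in shBCAT1 2. Its level moved between 2 short transcripts of the same locus (chromosome 5, 69093949 to 69104740), NM_001251969 with 81.3%, 4.6% and 94.3% and NM_024055 with 0.0%, 76.5% and 0.0%. The transcript that spans the whole gene, NM_022902, was at 0.103, 0.103 and 0.038 FPKM. SLC30A1 (ZnT1), the exporter of the plasma membrane and a known MTF1 target, was at 0.147 FPKM in the control, 0.142 in shBCAT1 1 and 0.202 in shBCAT1 2, from 4, 4 and 6 fragments. Its ratio of shBCAT1 2 to shBCAT1 1 was 1.42 with an exact 95% interval of 0.337 to 6.84, so neither a change like that of MT2A nor its absence was detectable at this depth. The 10 exporters summed to 1.38, 1.30 and 1.87 FPKM, and 0 of them reached 1 FPKM on average. SLC30A6, the partner of SLC30A5, was at 0.0438 FPKM in the control, 0.113 in shBCAT1 1 and 0.281 in shBCAT1 2. The bounds of shBCAT1 2 (0.150 to 0.412) lay above those of the control (0 to 0.115). These levels were far below 1 FPKM, where few fragments make such bounds a poor guide. The shares of genes with bounds apart do not cover that range, so nothing is read from the gap.

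Ordered by level in the control, the members ran MT2A, SLC39A4, MT1X, SLC39A7, SLC39A1, MT1F, SLC30A5 and SLC30A1, with MT1E and MT1G at 0. MT2A and SLC39A4 stood apart from their neighbours in that order, while the bounds of MT1X, SLC39A7 and SLC39A1 overlapped. The place of SLC39A4 depends on the assignment of its fragments to the short transcript. In shBCAT1 1, MT1X came below SLC39A7 and SLC39A1, and in shBCAT1 2 it came above both. MT2A was at percentile 99.4 to 99.7 of all genes in the 3 libraries.

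Genes tied to metal handling outside these families were read from lists. A listed gene is called measured if it averaged 1 FPKM or more, and listed genes not so called may still have had a lower level. Of 9 regulators of metallothionein transcription, 2 reached 1 FPKM on average: USF1 at 1.20 FPKM in the control, 1.23 in shBCAT1 1 and 1.47 in shBCAT1 2, and KEAP1, which holds back NRF2, at 3.2, 2.62 and 3.17. MTF1 itself was at 0.111, 0.158 and 0.259 FPKM, below the minimum. Of 10 glucocorticoid targets, NFKBIA alone was measured, at 2.92, 3.45 and 0.537 FPKM. Of 19 zinc enzymes of the secretory pathway, the placental alkaline phosphatase ALPP alone was measured, at 2.35, 2.27 and 7.39 FPKM. It has close paralogs. On the log2(FPKM + 1) scale NFKBIA differed from the control by 0.18 in shBCAT1 1 and -1.35 in shBCAT1 2, and ALPP by -0.04 and 1.32. The spread in limma comes from the gap between the shBCAT1 libraries, so a gene that differs in 1 of them alone can hardly pass. By limma with Benjamini-Hochberg adjustment over all genes, 0 members of these 3 lists passed in either direction and 0 had an unadjusted p under 0.05, where 14 of all genes (0.360%) were lower and 0 (0.00%) higher. Before adjustment, 193 of all genes below the control and 25 above it had p under 0.05. That balance was 106 to 69 after scaling by median ratios, 77 to 63 after quantile normalization and 55 to 79 with the length trend removed, where 11 genes were called lower and 2 higher.

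Copper handling, which metallothioneins share with dedicated chaperones, had 4 of 13 listed genes measured, and 3 of them were below the control in both shBCAT1 libraries, as were 43.7% of all genes tested. The list had a median difference of -0.64 beside -0.06 over all genes tested. ATOX1, the chaperone that passes copper to the secretory pathway, was at 17.6 FPKM in the control, 12.6 in shBCAT1 1 and 8.73 in shBCAT1 2. COMMD1 was at 4.95, 2.53 and 3.47 FPKM and COX17 at 17.2, 8.77 and 8.57. CCS, which loads superoxide dismutase 1, was at 2.40, 2.57 and 2.21. COX17 was lower with bounds apart in both shBCAT1 libraries, as were 4.17% of all genes tested. ATOX1 was so in shBCAT1 2 alone, as were 7.66%, and the bounds of COMMD1 overlapped those of the control. With an adjusted p of 0.797 for each of the 3 lower genes, 0 passed limma, and 1, COX17, had an unadjusted p under 0.05, as had 218 of the 3889 genes. Their transcripts were short, at 423 bases for COX17, 489 for ATOX1 and 713 for COMMD1. Genes of 300 to under 600 bases had a median difference of -0.45 in shBCAT1 1 and -0.55 in shBCAT1 2. Those of 600 to under 1000 bases had -0.36 and -0.31. The part of length was not tested.

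Of 15 genes of the response to metal stress, 10 were measured, 5 below and 2 above the control in both libraries, beside 43.7% and 25.6% of all genes. Their median difference was -0.14, beside -0.06 over all genes, and 0 passed limma (0 at an unadjusted p under 0.05). The ferritin chains FTL and FTH1 store iron. FTL was at 233 FPKM in the control, 190.0 in shBCAT1 1 and 154 in shBCAT1 2, and FTH1 at 345, 283 and 287. Both genes were lower with bounds apart in both shBCAT1 libraries, as were 4.17% of all genes tested. Their transcripts had 871 and 1229 bases. The medians of their length classes in shBCAT1 1 and shBCAT1 2 were -0.36 and -0.31 for FTL and -0.19 and -0.07 for FTH1. The part of length was not tested. The heat shock gene HSPA1A, a near copy of HSPA1B and so uncertain, was at 7.62, 9.58 and 11.6 FPKM. It was higher than the control with bounds apart in shBCAT1 2 alone, where 7.35% of all genes were higher. GCLM, a subunit of the enzyme that starts glutathione synthesis, was at 1.40, 1.19 and 0.965.

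The genes whose 2 differences lay nearest to those of MT2A, among 995 others at 5 FPKM or more, were SMARCB1, SCARNA2, CST6, HNRNPA1P33 and H2BC12, at distances of 0.16 to 0.24 on the log2 scale. SMARCB1, a subunit of the SWI/SNF chromatin remodelling complex, was at 6.77 FPKM in the control, 5.46 in shBCAT1 1 and 11.4 in shBCAT1 2. SCARNA2, a small RNA of Cajal bodies, was at 6.41, 5.04 and 11.8 FPKM, and CST6, a cystatin that inhibits proteases, at 12.4, 10.0 and 17.3. HNRNPA1P33 is a pseudogene and H2BC12 a histone gene with near copies, so both are uncertain. With 3 libraries, this likeness is over 2 differences that share the control.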

How the data were processed

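RNA of 1 control and 2 shBCAT1 libraries was analysed, with groups from the knockdown field and numbers from the titles. The deposited values are FPKM with bounds, 1 entry per RefSeq transcript and locus, computed by the authors per library; Trim Galore, TopHat, Cufflinks and build hg38 are named in the submitters' processing notes, without versions or roles. Each table held 56882 entries for 50337 accessions. RefSeq (GRCh38.p14) named 49281 and GENCODE 29 another 645. FPKM was summed per symbol, and 341 of 26562 symbols with a status other than OK were left out. The 5930 entries on alternative sequences, 15 of them of SLC39A7, were all 0. Bounds were combined as a root sum of squares with 2 SDs per bound, which treats transcripts as independent. Fragments were taken as the squared quotient of FPKM and its SD (whole within 0.01 for 73.7% of values of single-entry genes). The median SD was 12.5% to 13.6% of the value.

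For genes averaging 1 FPKM or more, limma 3.58.1 under R 4.3.3 was run on log2(FPKM + 1) with a trend and Benjamini-Hochberg adjustment (threshold 0.05, two-sided), which understates changes of low genes. The spread comes from the shBCAT1 libraries alone, which may differ in hairpin. Ratio intervals are exact Clopper-Pearson at 95%, for counting error only, and are given as a description and not as a test. Promoter windows and their sequences are RefSeq's. Lengths came from GENCODE with ends set to the deposited locus (86.8% of genes tested). Python 3.11.15, pandas 2.3.3, numpy 2.4.6, scipy 1.17.1 and matplotlib 3.10.9 were used. Named genes are the members, measured family genes, up to 4 per list with the largest smaller difference of 1 sign, and the 5 nearest to MT2A; genes that are a list's only measured member, and SLC39A13, SLC30A6, MTF1, MT1A and CCS, were named after their values were seen. Alternatives were 2 pseudocounts, 2 minimum levels, 2 scalings, primary chromosomes, separate transcripts, length and leaving out a library. Group means are over members above 0 in any library, also below 1 FPKM. Members and lists were chosen with earlier results of these data known.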

Additional observations from a re-analysis of the deposited data

How the results depend on the processing

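The count of 14 genes called by limma became 0 of 16449 with no minimum level (260 higher and 788 lower at an unadjusted p under 0.05), 8 at a minimum mean of 5 FPKM and 0 with transcripts kept apart (88 and 178 at an unadjusted p under 0.05). With the length trend removed it was 13, 2 of them higher. The metallothionein mean of -0.031 ran from -0.11 to 0.44 over the settings with both libraries. The mean difference of the SLC39 members went from -0.26 to -0.47 with transcripts kept apart, where NM_006979 stands for SLC39A7, and to 0.0305 with the length trend removed, where SLC39A4 has no value. That of the SLC30 members went from 0.038 to 0.12 with a pseudocount of 0.1 and to -0.0685 with transcripts kept apart. Leaving out each shBCAT1 library gave -0.56 to 0.50 for metallothioneins, -0.38 to -0.13 for SLC39 and -0.0075 to 0.083 for SLC30 members. The cause was not tested beyond what each alternative removes. SLC30 members gave no value at a minimum mean of 5 FPKM or with the length trend removed. Leaving out a library was not run for the count of calls, since 1 library a group leaves no residual spread. Depth limits MT1F and SLC30A1, at 4 to 6 fragments, and MT1X in shBCAT1 1, at 6. No paired analysis was possible because the groups share at most 1 replicate number.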
